A study of Mus musculus with 7 samples.

Results

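The 10 genes described here encode chains of the beaded collagen VI (Col6a1, Col6a2, Col6a3, Col6a5 and Col6a6), the short-chain collagen VIII (Col8a1 and Col8a2) and 3 collagens of the FACIT class (Col12a1, Col14a1 and Col16a1). They were taken by name from a table of 55450 Ensembl genes, all 10 were found there, and all 10 passed the filter on low counts that left 17959 genes for testing. Dorsal skin was taken from 24-month-old C57BL/6 male mice. Topical 5 μM ABT-263 (3 mice: 476, 477 and 478) or vehicle alone, DMSO (4 mice: 480, 481, 482 and 483), was put on this skin daily for 5 days. ABT-263, also called navitoclax, is an inhibitor of anti-apoptotic Bcl-2 proteins that is used to remove senescent cells. All mice, controls included, had dorsal hair removed by clipping and a depilatory lotion, and wore a semi-occlusive dressing over the treated skin. Each library was bulk polyA RNA of homogenized skin from 1 mouse, so that fewer cells of a type and less RNA per cell cannot be told apart.

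Collagen VI is a heterotrimer of an α1, an α2 and a longer α3 chain, and the trimers assemble into beaded microfibrils that lie between the large collagen fibrils and around cells. The α5 and α6 chains can take the place of α3. FACIT collagens do not form fibrils of their own. They attach to the surface of fibrils or other matrix networks by short triple helices, and their large non-collagenous domains project outward. Collagen VIII is a short-chain, network-forming collagen made by endothelial and smooth muscle cells among others.

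Total counts lay between 20344364 and 26824123 in the DMSO libraries and between 27325963 and 43562330 in the ABT-263 libraries, so every ABT-263 library was larger. Expression is given as CPM, the count scaled to library size with TMM normalization, and changes as log2 fold changes of ABT-263 over DMSO from the quasi-likelihood test of edgeR, with p-values adjusted by the Benjamini-Hochberg method over all genes tested. The skin label was checked against keratinocyte and fibroblast markers, all of which were detected in every mouse, and transcripts of skeletal muscle were abundant too, with a summed level of 22212 to 54750 CPM over 6 muscle genes. DMSO-treated mouse 481 stood apart in hair follicle transcripts (2334 CPM over 8 genes, against 22.0 to 24.2 CPM in the other DMSO-treated mice). ABT-263-treated mouse 478 stood apart in its group too, at 435 CPM against 3.22 and 8.67 CPM in mice 476 and 477. Mouse 481 had the lowest level of its group for 9 of the 10 collagen genes. Without mouse 481, the same number of the 10 genes passed the test.

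Col12a1 and Col6a3 rose after ABT-263, and 0 of the 10 genes fell in edgeR or in the DESeq2 Wald test. At an unadjusted p-value under 0.05 in edgeR there were 4 genes (these 2, Col6a1 and Col6a5), all higher, where 20.6% of all genes tested were higher by that rule. The 2 that passed an adjusted p-value of 0.05 are set against 12.4% of all genes tested that were higher by the same rule, and against 24.2% that differed in either direction. The groups did not overlap, the ABT-263-treated mice all being the higher, for Col6a1, Col6a3 and Col12a1, where 18.7% of all genes tested did the same. Of the 10 genes, 8 had a positive log2 fold change, as did 50.1% of all genes tested. The median of the 10 was 0.63, against 0.0022 for all genes tested, and it was 0.16 without mouse 478. The plot of expression by mouse shows the level of each gene, and the plot of fold changes shows their intervals.

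**Figure D1:**
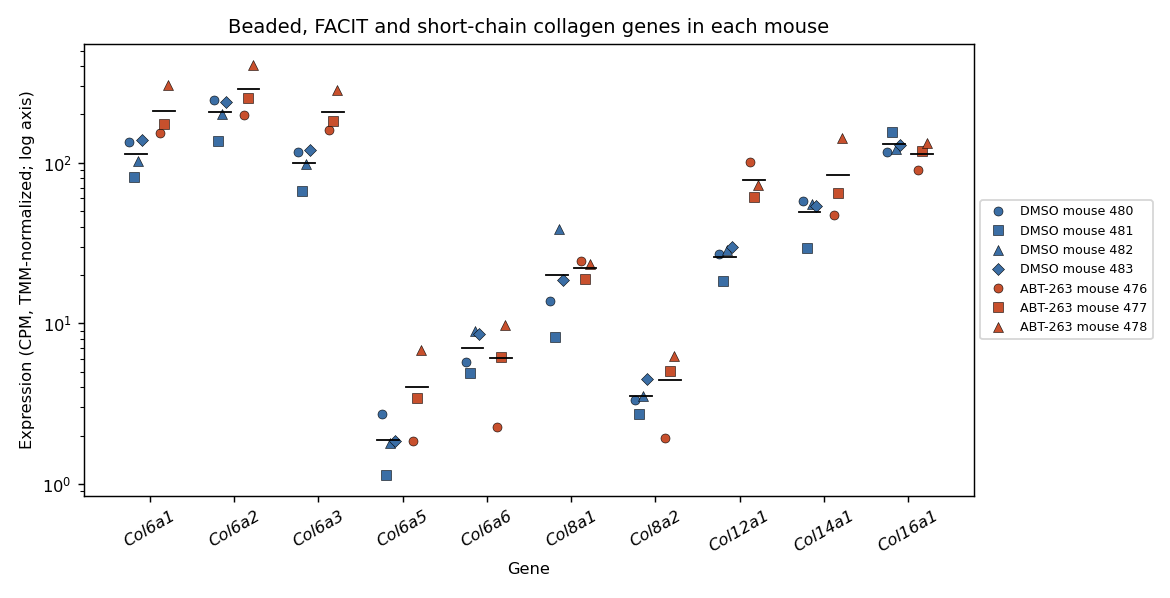
Expression of the 10 collagen genes in each mouse, in CPM with TMM normalization on a log axis. Each point is 1 mouse (blue, 4 DMSO-treated; red, 3 ABT-263-treated), and bars are group means. For Col6a1, Col6a3 and Col12a1 every red point lies above every blue point, and mouse 478 is the highest ABT-263-treated mouse for 8 of the 10 genes.

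Col12a1 encodes the chain of collagen XII, a homotrimeric FACIT found on collagen I fibrils in dermis, tendon and fascia. It was at 26.9, 18.3, 28.7 and 29.9 CPM in DMSO-treated mice 480, 481, 482 and 483 and at 102, 60.9 and 72.8 CPM in ABT-263-treated mice 476, 477 and 478. The lowest ABT-263-treated mouse was far above the highest DMSO-treated mouse, and mouse 476 was the highest. The means were 26.0 ± 5.25 CPM (SD, n = 4) and 78.5 ± 21.0 CPM (SD, n = 3), a 3.02-fold rise (95% interval 2.12 to 4.31) and a log2 fold change of 1.596 (SE 0.22, edgeR adjusted p = 0.00641). Col12a1 passed whichever mouse was left out, with log2 fold changes between 1.37 and 1.78. The gene lies on chromosome 9 from 79598991 to 79718831 on the minus strand (GRCm38, GENCODE M21).

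Col14a1 encodes collagen XIV, the closest relative of collagen XII among the genes described and likewise bound to fibrils. It was at 58.2, 29.3, 55.4 and 54.0 CPM in DMSO-treated mice 480 to 483 and at 47.1, 64.6 and 142 CPM in ABT-263-treated mice 476, 477 and 478. The groups overlapped, since mouse 476 lay within the DMSO range. The log2 fold change of 0.78 (SE 0.39, edgeR adjusted p = 0.179) did not pass the threshold, and it was 0.19 without mouse 478. Its 95% interval, from -0.13 to 1.69, includes both no change and a change as large as that of Col12a1.

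Col16a1 encodes collagen XVI, a FACIT found near the basement membrane and in the papillary dermis, where it joins fibrillin microfibrils. Its levels were 116, 155, 122 and 128 CPM in the DMSO-treated mice and 90.1, 118 and 133 CPM in the ABT-263-treated mice. Its interval was the narrowest of the 10 genes, with a log2 fold change of -0.20 (SE 0.17, edgeR adjusted p = 0.419) and a 95% interval from -0.59 to 0.19. DMSO-treated mouse 481, the lowest of its group for the other 9 genes, was the highest for Col16a1.

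Col6a3 encodes the α3 chain, whose long N-terminal array of von Willebrand factor A domains makes it the largest of the common trio. It was at 117, 66.5, 98.0 and 120 CPM in DMSO-treated mice 480 to 483 and at 159, 181 and 283 CPM in ABT-263-treated mice 476, 477 and 478. The groups did not overlap, with mouse 478 well above the other two. The means were 100.4 ± 24.7 CPM (SD, n = 4) and 208 ± 65.8 CPM (SD, n = 3), a 2.07-fold rise (95% interval 1.36 to 3.14) and a log2 fold change of 1.05 (SE 0.26, edgeR adjusted p = 0.0266). The call was lost without ABT-263-treated mouse 478 (log2 fold change 0.77, edgeR adjusted p = 0.0846) and without DMSO-treated mouse 482 (1.03, edgeR adjusted p = 0.0726), and held in the other 5 fits with a mouse left out.

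Col6a1, which encodes the α1 chain, was at 136, 81.2, 102 and 138 CPM in the DMSO-treated mice and at 154, 174 and 307 CPM in the ABT-263-treated mice. Its groups did not overlap either, but mice 480 and 483 came close to mouse 476. The log2 fold change of 0.89 (SE 0.28, edgeR adjusted p = 0.0531) narrowly missed the threshold, with a 95% interval from 0.24 to 1.54. It was 0.53 without mouse 478 (edgeR adjusted p = 0.175) and 1.08 without mouse 476 (edgeR adjusted p = 0.0473). Col6a1 also passed with the DESeq2 Wald test (adjusted p = 0.0191), which called 3 of the 10 genes (Col6a1, Col6a3 and Col12a1) where 13.6% of all genes with an adjusted p-value were higher by that rule.

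Col6a2 encodes the α2 chain. It was at 247, 137, 202 and 239 CPM in the DMSO-treated mice and at 198, 253 and 409 CPM in the ABT-263-treated mice, so that the groups overlapped. The log2 fold change was 0.48 (SE 0.29, edgeR adjusted p = 0.254), with a 95% interval from -0.19 to 1.14, and it was 0.14 without mouse 478. The annotation holds 27.8% of the exon bases of Col6a2 only in transcripts that are not protein-coding, against 6.39% for Col6a1. This share was 34.8% for Col8a1, 20.2% for Col12a1, 18.3% for Col16a1 and at most 9.29% for the other genes.

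The 2 chains that can replace α3 were much less abundant. Col6a5 was at 2.74, 1.14, 1.80 and 1.85 CPM in the DMSO-treated mice and at 1.86, 3.43 and 6.85 CPM in the ABT-263-treated mice, from 27 to 319 counts per library. Mouse 476 lay inside the DMSO range and mouse 478 far above it, and the log2 fold change of 1.11 (SE 0.47, edgeR adjusted p = 0.114) did not pass and was 0.50 without mouse 478. Col6a6 was at 5.73, 4.89, 8.98 and 8.59 CPM in the DMSO-treated mice and at 2.25, 6.15 and 9.77 CPM in the ABT-263-treated mice, with 63 to 455 counts per library. Mice 476 and 478 were on opposite sides of the whole DMSO range, and the log2 fold change of -0.21 (SE 0.46, edgeR adjusted p = 0.765) changed sign, to 0.18, without mouse 476.

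Col6a1 and Col6a2 lie on the minus strand of chromosome 10, from 76708792 to 76726168 and from 76595762 to 76623630, with 85161 bases between them. Col6a5 (chromosome 9, 105856078 to 105960643) and Col6a6 (chromosome 9, 105687809 to 105828160) are neighbours too, 27917 bases apart, while Col6a3 stands alone on chromosome 1 from 90765923 to 90843971. Of the other genes, Col8a1 lies on chromosome 16 (57624258 to 57754737, minus strand) and Col14a1 on chromosome 15 (55307750 to 55520803, plus strand). Col8a2 (126286793 to 126314330) and Col16a1 (130047840 to 130099283) are both on the plus strand of chromosome 4. In GENCODE M21, no other annotated gene shares exon bases with any of the 10 on the same strand. The authors counted on a different Ensembl annotation build, in which overlaps may differ. The authors counted reads on the same strand as the gene, and the single opposite-strand overlap was that of Gm38314 with 0.69% of the exon bases of Col6a6.

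The bases just upstream of collagen VI genes are shown for reference. Of Col6a1, Col6a2 and Col6a3, only Col6a3 passed in edgeR, but Col6a1 narrowly missed (edgeR adjusted p = 0.0531). The ratio of Col6a3 to Col6a1 did not pass (exact permutation test, adjusted p = 0.171), so a difference between Col6a3 and Col6a1 was not shown. The ratio of Col6a1 to Col6a2 was higher in every ABT-263-treated mouse but did not pass either (exact permutation test, adjusted p = 0.0857). That of Col6a3 to Col6a2 was not among the pairs tested. Whether the sequences bear on the changes was not tested. RefSeq gives promoter windows on GRCm38.p6 for 8 of the 10 genes. The 250 bases before the RefSeq start were searched on both strands. The TATA box TATAAA was in 12.4% of all 32817 windows of that length. The GC box GGGCGG was in 32.7%, the box CCAAT in 33.8% and the AP-1 sequence TGANTCA in 6.75% of them. Capitals below mark a match to any of them, and bases that GENCODE places inside the gene itself are left out, which shortens the runs of Col6a1 and Col6a6. All 4 are on the minus strand, at chr1:90843972-90844221 (Col6a3), chr10:76726169-76726294 (Col6a1), chr10:76623631-76623880 (Col6a2, the outer of its 2 RefSeq starts) and chr9:105828161-105828335 (Col6a6).
Col6a3: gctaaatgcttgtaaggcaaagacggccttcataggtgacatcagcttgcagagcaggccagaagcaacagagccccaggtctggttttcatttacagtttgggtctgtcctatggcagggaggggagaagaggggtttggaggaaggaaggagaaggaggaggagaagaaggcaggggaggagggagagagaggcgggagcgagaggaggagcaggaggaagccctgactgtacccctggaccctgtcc
Col6a1: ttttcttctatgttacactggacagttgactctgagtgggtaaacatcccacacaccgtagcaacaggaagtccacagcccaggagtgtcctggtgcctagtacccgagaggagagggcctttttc
Col6a2: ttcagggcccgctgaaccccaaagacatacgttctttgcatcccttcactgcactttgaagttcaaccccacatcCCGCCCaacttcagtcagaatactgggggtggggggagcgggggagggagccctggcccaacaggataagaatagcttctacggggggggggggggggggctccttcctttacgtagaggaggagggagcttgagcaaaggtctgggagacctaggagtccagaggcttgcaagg
Col6a6: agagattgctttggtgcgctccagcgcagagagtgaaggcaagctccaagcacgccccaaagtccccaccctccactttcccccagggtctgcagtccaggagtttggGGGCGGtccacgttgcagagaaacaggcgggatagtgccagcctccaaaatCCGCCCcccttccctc
Col6a3 held none of the 4 sequences in its window, and none of the 8 genes held TATAAA. A GC box stood in the windows of 6 of the 8 genes. There was 1 match for Col6a5 and for Col16a1, 2 for Col6a6 and 4 each for Col8a1 and Col8a2, while Col6a2 had 1 in the window shown and 3 in that of its other start. CCAAT was found in the window of Col16a1 alone. TGANTCA was found once among the 8 genes, in the part of the Col6a1 window that GENCODE places inside the gene and that is not shown. GC content was 57.2% for Col6a3, 56.0% for Col6a1 and 62.4% for Col6a6, against a median of 52.4% over all windows.

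**Figure D2:**
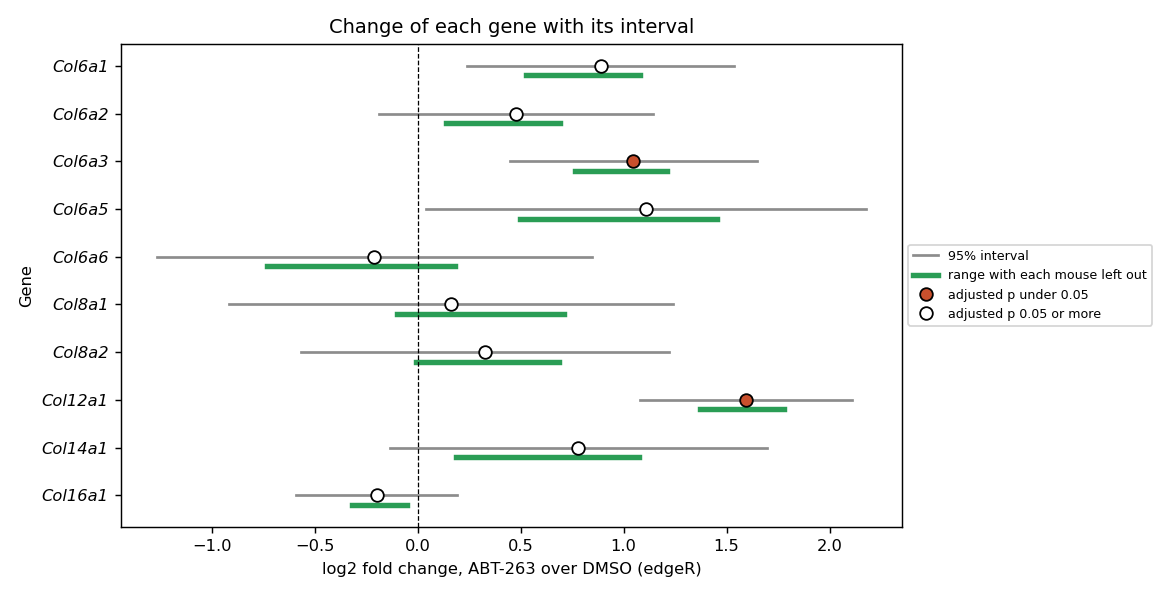
Log2 fold change of ABT-263 over DMSO for each collagen gene from edgeR (points, filled where the adjusted p-value is under 0.05), with 95% intervals (grey) and the range of the estimate with each mouse left out in turn (green). Col12a1 and Col6a3 are filled, and the green ranges of Col6a6, Col8a1 and Col8a2 cross 0.

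Collagen VIII did not pass in either chain. Col8a1 was at 13.7, 8.22, 39.0 and 18.7 CPM in the DMSO-treated mice and at 24.3, 18.9 and 23.4 CPM in the ABT-263-treated mice, all inside the DMSO range, which mouse 482 and mouse 481 spanned. The log2 fold change was 0.16 (SE 0.47, edgeR adjusted p = 0.824), with a 95% interval from -0.92 to 1.24. Col8a2 was at 3.36, 2.74, 3.54 and 4.52 CPM in the DMSO-treated mice and at 1.93, 5.04 and 6.29 CPM in the ABT-263-treated mice, with mouse 476 below and mice 477 and 478 above all of them. Its log2 fold change was 0.33 (SE 0.39, edgeR adjusted p = 0.564). Neither interval excludes a 2.3-fold rise.

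The ABT-263-treated mice differed among themselves in the same way for most of these genes. Mouse 478 was the highest of the 3 for 8 genes and mouse 476 the lowest for 8, and the summed level of all 10 was 780 CPM in mouse 476, 885 CPM in mouse 477 and 1393 CPM in mouse 478. The DMSO-treated mice ranged from 504 CPM (mouse 481) to 743 CPM (mouse 483). The genes for which mouse 476 was instead the highest were Col12a1 and Col8a1.

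Levels were compared between genes per kilobase of the longest protein-coding transcript. After DMSO the order of mean CPM per kilobase was Col6a2 (44.3), Col6a1 (27.9), Col16a1 (25.0), Col6a3 (9.94), Col14a1 (7.63), Col8a1 (3.90), Col12a1 (2.26), Col8a2 (0.817), Col6a6 (0.802) and Col6a5 (0.203). The ranges of neighbours in this order overlapped over the 4 mice except at 3 steps, from Col16a1 to Col6a3, from Col12a1 to Col8a2 and from Col6a6 to Col6a5. Compared within each mouse, Col6a1 was above Col16a1 and Col8a2 above Col6a6 in 3 of the 4. Every other step held in all 4 mice. When all exon bases of each gene were used in place of that transcript, an alternative chosen after seeing the data, Col6a1 and Col6a2 changed places and the rest of the order was as given. After ABT-263 Col12a1, at 6.82 CPM per kilobase, stood above Col8a1, at 4.35. Of the summed CPM per kilobase of the α3-type chains Col6a3, Col6a5 and Col6a6, Col6a3 made up 88.9% to 92.4% in the DMSO-treated mice. It made up 93.8% to 97.2% in the ABT-263-treated mice. These shares carry no test, and Col6a4, another α3-like chain, was left out of the sum.

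Ratios between related chains were then compared over the mice, for 6 pairs, with an exact permutation test, two-sided on the absolute difference of the group means. With 4 mice against 3, the smallest p-value this test can give is 0.0286. The log2 ratio of Col6a1 to Col6a2 was -0.86, -0.75, -0.98 and -0.79 in DMSO-treated mice 480 to 483 and -0.37, -0.54 and -0.42 in ABT-263-treated mice 476 to 478, so that the ratio was higher in every ABT-263-treated mouse. The difference was 0.40 on the log2 scale, a factor of 1.32 (exact permutation test, p = 0.0286, adjusted p = 0.0857 over the 6 pairs). Leaving out 1 mouse at a time gave 0.36 to 0.45.

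Col6a6 was lower relative to Col6a3 in every ABT-263-treated mouse. The log2 ratio was -4.24, -3.64, -3.38 and -3.73 in the DMSO-treated mice and -5.86, -4.77 and -4.78 in the ABT-263-treated mice. The difference was -1.39, a factor of 0.381 (exact permutation test, p = 0.0286, adjusted p = 0.0857 over the 6 pairs), and leaving out 1 mouse at a time gave -1.58 to -1.03. Neither this ratio nor that of Col6a1 to Col6a2 passed after adjustment, which with 6 pairs would have needed at least 4 pairs at the smallest p-value, where 2 stood.

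The ratio of Col12a1 to Col14a1 was spread widely after ABT-263. Its log2 value was -1.10, -0.66, -0.94 and -0.84 in the DMSO-treated mice and 1.11, -0.08 and -0.96 in ABT-263-treated mice 476, 477 and 478, so mouse 478 lay within the DMSO range and mouse 476 far above it. The difference of 0.90 had p = 0.114 (exact permutation test, adjusted p = 0.171) and was 0.36 without mouse 476 and 1.39 without mouse 478. This test did not show the change of Col12a1 to differ from that of Col14a1, nor that the changes were alike. The other 3 ratios, of Col6a3 to Col6a1, Col6a5 to Col6a3 and Col8a1 to Col8a2, differed by 0.19, -0.22 and 0.19, with adjusted p-values of 0.171, 0.549 and 0.714 from the exact permutation test.

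**Figure D3:**
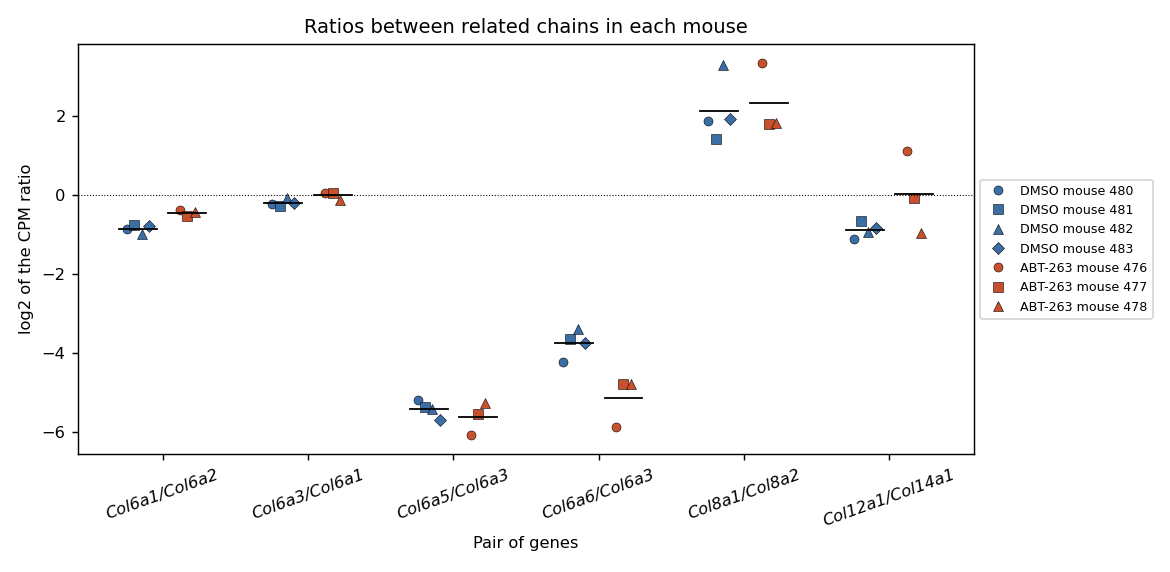
Log2 ratio of CPM between related chains in each mouse (blue, 4 DMSO-treated; red, 3 ABT-263-treated; bars, group means). The groups are apart for Col6a1/Col6a2 and Col6a6/Col6a3, and the ABT-263-treated mice spread from -0.96 to 1.11 for Col12a1/Col14a1.

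Of 9 other beaded, FACIT and short-chain collagens, 8 were found by symbol. Of these 8, 4 (Col6a4, Col9a3, Col20a1 and Col22a1) had enough counts to test, and 0 passed in edgeR. At an unadjusted p-value under 0.05 there was 1, Col6a4 (log2 fold change 1.52, edgeR adjusted p = 0.0934). Col6a4, which encodes another α3-like chain, was under 1 CPM in every mouse. The DESeq2 Wald test called 1 further gene, Col19a1, lower. It was at 2.701 and 5.77 CPM in DMSO-treated mice 480 and 481 and at 0.0504 to 0.164 CPM in the other 5 mice, so the difference rests on those 2 mice. Col21a1 was not found under that symbol.

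Among 12 genes for proteins that bind collagen VI, 10 were tested, of which 4 rose and 1 fell, with a median log2 fold change of 0.50. Antxr2, a cell-surface receptor that takes up collagen VI, rose from a mean of 11.2 CPM (SD 1.27, n = 4) to one of 33.6 CPM (SD 15.7, n = 3), or by 1.59 on the log2 scale (edgeR adjusted p = 0.0105), and passed whichever mouse was left out. Itgb1, the β1 chain of collagen-binding integrins, rose by 1.04 on the log2 scale (edgeR adjusted p = 0.00921) and also passed in all 7 such fits. Bgn, a small proteoglycan that binds the N-terminal region of collagen VI, rose by 1.19 (edgeR adjusted p = 0.0318) and passed in 3 of them, with 0.97 to 1.41, the call being lost without mouse 476, 478, 482 or 483. Antxr1 (0.51, edgeR adjusted p = 0.0494) passed in 1 of the 7 and Matn4, a matrilin (-1.74, edgeR adjusted p = 0.0497), in 0 of the 7, so both calls stand at the threshold. Itga2 (1.37, edgeR adjusted p = 0.0502) narrowly missed the threshold and was higher in every ABT-263-treated mouse. It passed in 1 of the 7 fits and in the DESeq2 Wald test on all mice (adjusted p = 0.0114). Dcn (0.48) and Cspg4 (-0.39) did not pass.

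Of 11 genes for the fibrils to which FACITs bind and for proteins found there, 7 rose and none fell in edgeR, with a median of 0.90. Col3a1 rose by 2.93, Col5a2 by 2.48, Lum by 1.65 and Col5a1 by 1.20 on the log2 scale, and all but Col5a1 passed whichever mouse was left out. Col5a1 lost its call without mouse 482 (1.21) or mouse 478 (0.97). Col1a2 (0.83, edgeR adjusted p = 0.0410), Comp (0.90, adjusted p = 0.0406) and Tnc (3.08, adjusted p = 0.0440) passed in 2, 1 and 1 of the 7 fits, and Tnc was at 1124 CPM in mouse 476 against 188 and 165 CPM in mice 477 and 478. Col1a1 (0.47) and Tnxb (0.35) did not pass. Set against its fibril partners per kilobase, Col12a1 stood at 0.489 to 0.868 per 100 of Col1a1 in the DMSO-treated mice and at 1.01 to 2.20 in the ABT-263-treated mice, and at 2.03 to 3.03 per 100 of Col3a1 in the former and 0.656 to 1.38 in the latter. Collagen XII transcript was thus higher relative to collagen I and lower relative to collagen III in every ABT-263-treated mouse, and these 2 comparisons were chosen after the values were seen and carry no test.

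**Figure D4:**
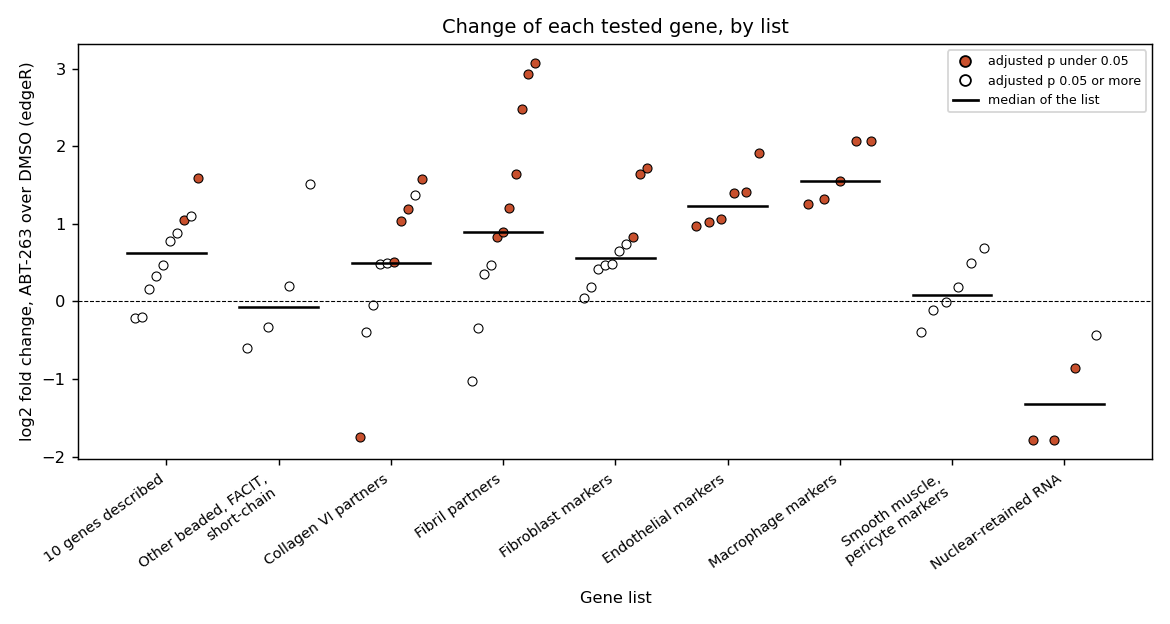
Log2 fold change of ABT-263 over DMSO from edgeR for every tested gene of 9 lists (points, filled where the adjusted p-value is under 0.05; bars, medians). The 10 collagen genes have a median of 0.63, between those of fibroblast markers (0.57) and fibril partners (0.90), and all tested endothelial and macrophage markers are filled and above 0.

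The genes whose pattern over the 7 mice lay closest to each collagen gene were sought among 9732 protein-coding genes with a mean of at least 10 CPM, by the root mean square difference of centred log2(CPM + 0.5). For Col6a3 these were Col6a1 (0.123), Aebp1 (0.134) and Col5a1 (0.136), where the value is the difference on the log2 scale. For Col6a1 they were Lrrn4cl (0.0974), Col6a3 (0.123) and Col15a1 (0.125). For Col12a1 they were Apbb1ip (0.0919), S1pr1 (0.104) and Hif1a (0.135), none of them a collagen, and for Col14a1 Islr (0.196), Col6a2 (0.212) and Fn1 (0.242). For Col6a2 they were Slc39a11 (0.115), Adamts2 (0.127) and Slc9a3r2 (0.133), and for Col6a5 Col14a1 (0.185), Fn1 (0.194) and Col6a1 (0.233). The nearest genes were Telo2 (0.0724) for Col16a1, Cd209g (0.0981) for Col8a1, Lss (0.170) for Col8a2 and Aadacl4 (0.269) for Col6a6. Within the 10 genes, Col6a1 and Col6a3 were the closest pair and Col12a1 and Col6a6 the farthest (1.18).

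Marker genes of several cell types moved with treatment. Of 10 fibroblast markers, 3 rose (Pdgfra, Lum and Col1a2) and none fell, and the sum of the 10 was 4058 to 5734 CPM in the DMSO-treated and 6461 to 9033 CPM in the ABT-263-treated mice. Most of that sum came from Col1a1 and Col1a2, which, like Lum, are also in the list of fibril partners. All 6 endothelial markers rose, with sums of 134 to 299 CPM and 444 to 584 CPM, and 3 of them (Cdh5, Kdr and Tek) passed with each mouse left out. All 5 macrophage markers rose, with sums of 99.2 to 234 CPM and 352 to 737 CPM, and 1 of them (Cd163) passed with each mouse left out. None of the 6 smooth muscle and pericyte markers passed (edgeR), although 3 had an unadjusted p-value under 0.05 (Myh11, 0.69, and Rgs5, 0.49, against Cspg4, -0.39, on the log2 scale). The sums over the 6 overlapped (3761 to 7065 CPM and 3630 to 6550 CPM). Most of each sum was Des alone (3441 to 6631 CPM and 3251 to 6164 CPM), so these sums say little about the other markers. No marker of these lists was at 0 in every mouse. Of 4 nuclear-retained RNAs, 3 (Malat1, Kcnq1ot1 and Meg3) fell, with sums of 3093 to 4487 CPM and 1340 to 1940 CPM. Of the other lists, 1 of 6 skeletal muscle genes fell (Tnnc2), and 1 of 5 basal keratinocyte genes rose (Itga6) and 1 fell (Krt15). None of 5 adipocyte, 5 suprabasal keratinocyte or 7 tested hair follicle genes passed in edgeR. The part of these shifts in the levels of the collagen genes was not tested.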

How the data were processed

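Skin RNA of 7 mice was sequenced, with 1 library per mouse, so p-values measure the spread between mice. The authors aligned reads to mm10 with STAR 2.7.9a and counted uniquely aligned proper pairs on the same strand per Ensembl gene with featureCounts (Subread 1.6.2), leaving out mitochondrial genes. They deposited these raw counts and a table of log2-scale values from the variance-stabilizing transformation of DESeq2 1.23.10. Symbols, positions and transcript lengths came from GENCODE M21 on GRCm38, which matched 55190 of 55450 identifiers. The authors counted on a different Ensembl annotation build, so exon lengths may differ slightly from those counted. Counts were tested with edgeR 4.0.16 (R 4.3.3; filterByExpr, TMM, robust quasi-likelihood fit) with Benjamini-Hochberg adjustment and a threshold of 0.05. Ratios used CPM + 0.5. Alternatives were the DESeq2 1.42.0 Wald test, other size factors and count filters, protein-coding genes only, length and GC trends removed (mgcv 1.9.3), thinned counts, limma 3.58.1 on the deposited log2 values, and each mouse left out. Scripts were tested on simulated data. The 10 genes, the partner and marker lists and the rule for genes with the closest pattern (the 3 nearest protein-coding genes) were chosen with earlier results of these data known. Of the partner lists, genes past the threshold, Itga2 just short of it and a few listed for their role were named. The result of 1 marker list is not reported here.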

Additional observations from a re-analysis of the deposited data

Results flagged for a closer look

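Within the 4 DMSO-treated mice, 30 measures (the 10 collagen genes, the 6 ratios and the 14 summed lists) were examined for a mouse whose gap to its nearest neighbour took up an unusual share of the group's range, and 3 exceeded Dixon's 95% critical value, where chance gives about 1.5. Col14a1 was lowest in mouse 481, at 29.3 CPM against 54.0 to 58.2 CPM, a share of 0.855. The summed basal keratinocyte markers were highest in mouse 480, at 30991 CPM against 17967 to 19153 CPM (0.909). The summed hair follicle markers were highest in mouse 481, at 2334 CPM against 22.0 to 24.2 CPM (0.999). Without mouse 481 the log2 fold change of Col14a1 was 0.59 and that of Col6a3 was 0.89 (edgeR adjusted p = 0.0467).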

How the results depend on the processing

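Over 15 alternatives per gene, Col12a1 passed in all 15, Col6a3 in 13 and Col6a1 in 3 (the DESeq2 Wald test, length and GC trends removed, and without mouse 476). The number of the 10 genes called was 1 to 3 with each mouse left out, and 1 without mouse 482 or mouse 478. The sign of Col6a6 turned without mouse 476 (0.18), that of Col8a1 without mouse 481 (-0.10) and that of Col8a2 without mouse 478 (-0.01). The median of the 10 log2 fold changes was 0.16 without mouse 478 and 0.88 without mouse 476. With each mouse left out, the log2 difference lay between -0.40 and 0.012 for Col6a5/Col6a3 and between -0.32 and 0.58 for Col8a1/Col8a2. Calls among collagen VI partners numbered 5, with 6 in the Wald test and under both other count filters, 3 when protein-coding genes alone were tested and 2 to 4 with each mouse left out, and those among fibril partners 7, with 3 to 5. The Wald test called 1 of the other collagens. Over all genes, 2234 were higher and 2108 lower, against 850 and 974 without mouse 482 and 964 and 771 without mouse 478. The cause of these shifts was not tested. No paired analysis was possible because the mouse numbers of the 2 groups are not shared. Col6a5, Col6a6 and Col8a2 rest on as few as 27, 63 and 54 counts in a library.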
